A study of Mus musculus with 35 samples.

Results

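Oligodendrocyte lineage and myelin genes are described here in mouse brain hemispheres after experimental stroke. A list of 34 genes was taken, from oligodendrocyte precursor markers to the proteins of compact myelin, and each was read from its brightest probe set, by mean signal in the arrays fitted. Of the 34 genes, 32 were measured, among 18193 genes in all. Trf is named only on a probe set that it shares with another gene, and no row was listed for Enpp2, so neither was analysed here.

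RNA was measured on Affymetrix mouse arrays in 6 groups of male mice on the FVB background. Brain hemispheres of β2 adrenergic receptor knockout mice were taken 24 h after middle cerebral artery occlusion (MCAO, which blocks a main artery of the forebrain; 7 arrays) or after sham surgery (3 arrays), and as naive tissue (7 arrays). Wild type FVB mice gave 7 MCAO, 3 sham and 8 naive arrays. After MCAO the ischemic hemisphere was used and after sham surgery the hemisphere of the same side, and the sham hemispheres are the controls for each genotype. The labels do not say how the receptor was deleted, and the targeted gene is not reported here. They number the arrays without saying that each is a separate animal, so p-values measure the spread between arrays, which may be partly technical. Values are log2 signals, and a change is a difference of mean log2 signals, where 1 means a doubling.

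Oligodendrocytes wrap axons in myelin, a stack of membrane that speeds conduction and supplies the axon with metabolites. They arise throughout life from precursors that carry the PDGF receptor alpha and the NG2 proteoglycan. Precursors that commit to differentiation pass a stage marked by the receptor GPR17, then switch on galactolipid synthesis and the genes of the myelin proteins under SOX10 and OLIG family factors. White matter is sensitive to loss of blood flow, and precursors divide in the days to weeks after a stroke. In RNA of a whole hemisphere, fewer cells of a type and less RNA per cell cannot be told apart.

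Promoter sequence is shown for 3 members whose signal was higher after MCAO in knockout hemispheres, Cldn11, Mobp and Olig2. The sequences are from RefSeq (GRCm38.p6) and cover the 250 bases before the annotated start, 5′ to 3′ on the gene's strand. Capitals mark matches, on either strand, to AACAAT or to ACAAAG. Both are short cores recognised by HMG-box factors, which include the SOX and TCF/LEF families. The windows are chr3:31149670-31149919 on the plus strand for Cldn11, chr9:120149492-120149741 on the plus strand for Mobp, and chr16:91225300-91225549 on the plus strand for Olig2.
Cldn11: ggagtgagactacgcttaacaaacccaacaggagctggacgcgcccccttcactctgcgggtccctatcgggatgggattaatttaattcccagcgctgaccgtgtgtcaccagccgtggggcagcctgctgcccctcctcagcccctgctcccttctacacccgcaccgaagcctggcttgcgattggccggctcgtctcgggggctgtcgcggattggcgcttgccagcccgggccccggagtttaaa
Mobp: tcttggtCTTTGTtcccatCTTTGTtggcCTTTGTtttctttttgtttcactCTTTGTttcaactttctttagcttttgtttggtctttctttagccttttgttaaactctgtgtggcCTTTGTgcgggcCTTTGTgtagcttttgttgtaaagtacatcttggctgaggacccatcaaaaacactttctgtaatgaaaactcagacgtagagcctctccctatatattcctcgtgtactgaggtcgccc
Olig2: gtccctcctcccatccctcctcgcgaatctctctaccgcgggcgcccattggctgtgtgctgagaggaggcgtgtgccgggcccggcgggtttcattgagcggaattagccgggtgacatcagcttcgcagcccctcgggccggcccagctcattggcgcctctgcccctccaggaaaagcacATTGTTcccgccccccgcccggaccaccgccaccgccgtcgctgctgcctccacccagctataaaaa

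The Mobp window held 6 matches to ACAAAG, all read as CTTTGT on the printed strand, and only 1 of 32851 RefSeq windows of this length, Mobp's own, held as many. The ACAAAG core was added to the search after the Mobp window had been seen. The Olig2 window held 1 match to AACAAT, and the Cldn11 window held neither core. Of the members, 23 had 32 windows in the table, some of them overlapping. AACAAT occurred in 15.6% of those windows and in 9.4% of all windows, ACAAAG in 31.2% and 16.5%, and the E-box CAGCTG in 3.1% and 13.0%. These are letter matches, described without a test. Gpr17, Bcas1 and Sox10, which also carry results below, had no entry.

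The arrays differed in ways the groups do not name. The difference between the 3′ and 5′ actin control probe sets grows as RNA degrades. It averaged 1.01 ± 0.52 in knockout MCAO arrays (SD, n = 7) and 1.66 ± 0.083 in knockout sham arrays (n = 3). In wild type it averaged 0.870 ± 0.44 in MCAO arrays (n = 7) and 0.929 ± 0.077 in sham arrays (n = 3). Wild type MCAO arrays 1 to 3 lay at 0.387 to 0.577 and arrays 4 to 7 at 0.927 to 1.70. Knockout MCAO arrays 2 and 5 had Gapdh 3′ minus 5′ differences of 0.383 and 1.18, against -0.27 to 0.00 in the other surgery arrays. Wild type MCAO array 4 was the highest of its group for 18 of 32 members, and knockout MCAO array 4 was the highest of its group for 18 as well. Over the lists of cell types, mean signals in the surgery arrays lay between 11.70 and 12.38 for pan-neuronal genes, 10.30 and 11.11 for astrocyte genes and 9.42 and 10.18 for the members, with array medians over all probe sets of 6.32 to 6.45. Lists of peripheral Schwann cell genes and of thalamus, hindbrain and cerebellum genes ranged from 6.26 to 6.86 and from 6.57 to 7.63.

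After MCAO, the myelin junction gene Cldn11, the early myelination gene Bcas1 and the factor gene Nkx6-2 were among those higher in both genotypes, and Gpr17, the receptor gene of committed precursors, was lower. In knockout hemispheres 7 of 32 members were higher than in sham (21.9%, where 16.1% of all genes were called higher) and 2 were lower (6.25%, where 8.90% of all genes were called lower and 25.0% in either direction). In wild type hemispheres 8 were higher (25.0%, against 8.68% of all genes) and 1 was lower (3.125%, against 7.27% of all genes lower and 15.9% in either direction). The calls are limma tests with Benjamini-Hochberg adjusted p under 0.05 over 18193 genes. Cldn11, Mobp, Bcas1, Nkx6-2, Ermn and Sirt2 were called higher in both genotypes and Gpr17 was called lower in both. The median change of the members was 0.07 in knockout and 0.19 in wild type, beside -0.00 and 0.05 for all genes. Without wild type MCAO array 4 the wild type median was 0.06, and without knockout sham array 1, 2 or 3 the knockout median was 0.14, 0.02 or 0.12. It was 0.04 without knockout MCAO array 3 and 0.03 without array 4. The shares in knockout hemispheres lay near those of all genes. MCAO and sham arrays did not overlap for 5 members higher and 1 lower in knockout (15.6% and 9.17% of all genes), and for 6 higher and 1 lower in wild type (10.6% and 9.26% of all genes).

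These counts rested on few sham arrays. Without knockout sham array 2 only Cldn11 was called of the members in knockout, and without knockout sham array 3 the count was 3. Of all genes 2433 and 2337 were called in these fits, against 4545 with all arrays. Without wild type sham array 2 or array 3 the wild type count was 3 or 2. Of all genes 1858 or 1671 were then called, against 2901 with all arrays. Leaving out knockout MCAO arrays 2 and 5, an alternative chosen after the data were seen, gave 12 calls in knockout. The balance of the knockout calls moved with the scaling. With quantile normalization repeated 4 were higher and 4 lower, with Mobp, Ermn and Sirt2 lost, Pllp and Aspa gained as lower and a median of -0.01, and with each array centred on its median 9 were higher and 1 lower. The fall of Gpr17 and the rise of Cldn11 in wild type stayed called in all 20 alternatives run, and the rise of Cldn11 in knockout in all 21.

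**Figure D1:**
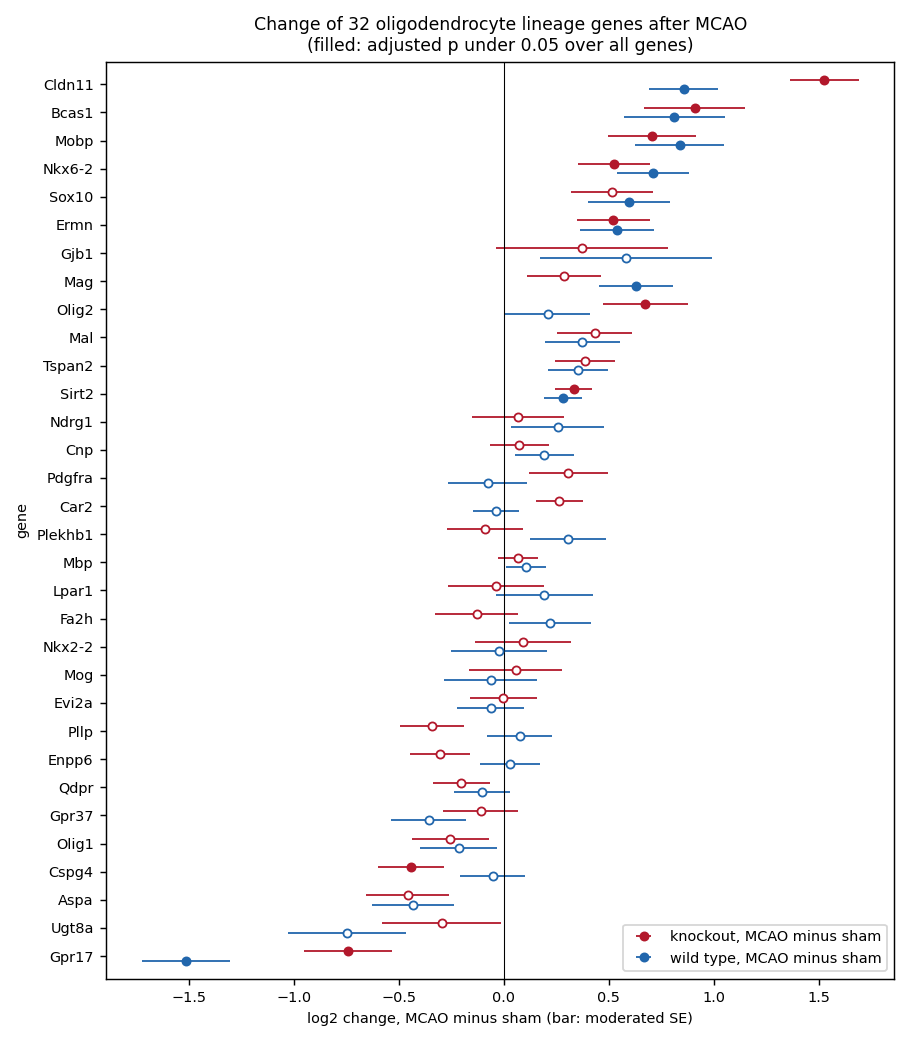
Log2 change after MCAO relative to sham for the 32 members, with knockout in red above wild type in blue for each gene; bars are standard errors and filled points passed an adjusted p of 0.05. Cldn11 lies farthest to the right at 1.52 in knockout and 0.86 in wild type, and Gpr17 farthest to the left at -0.74 and -1.51.

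Of the 12 genes for myelin and junction proteins, 3 were higher after MCAO in knockout (25.0%, against 16.1% of all genes) and 4 in wild type (33.3%, against 8.68%). The median change was 0.33 and 0.36. Cldn11, the claudin of the tight junctions between myelin layers, moved most. Its log2 signal ran from 10.22 through a median of 10.60 to 10.97 in knockout MCAO arrays, and was 9.51, 9.11 and 8.72 in knockout sham arrays. Wild type arrays ran from 10.47 through 10.74 to 10.78 after MCAO, against 10.15, 9.64 and 9.70 after sham surgery. The MCAO arrays of each genotype lay above every sham array of that genotype. The 3 knockout sham arrays were also the lowest of the 20. The change was 1.52 in knockout (2.88-fold, SE 0.16, adjusted p = 2.97e-06) and 0.86 in wild type (1.81-fold, SE 0.16, adjusted p = 0.00133).

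Mobp, which codes for a small basic protein of compact myelin, ran from 11.93 through 12.33 to 12.68 in knockout MCAO arrays, against 11.87, 11.23 and 11.56 in knockout sham arrays. Values in wild type ran from 12.31 through 12.45 to 13.40 after MCAO, against 12.06, 11.64 and 11.55 after sham surgery. The groups did not overlap in either genotype, and the highest value was wild type MCAO array 4. The change was 0.70 in knockout (SE 0.21, adjusted p = 0.0193) and 0.84 in wild type (adjusted p = 0.00994). All 4 further probe sets of Mobp pointed the same way in both genotypes, and 3 of the 4 were called in wild type over 34945 probe sets.

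Ermn, which codes for the cytoskeletal protein ermin of late oligodendrocytes, ran from 9.01 through 9.56 to 9.97 in knockout MCAO arrays, against 9.08, 8.85 and 9.06 in knockout sham arrays. In wild type it ran from 9.46 through 10.00 to 10.10 after MCAO, against 9.30, 9.55 and 9.20 after sham surgery. The groups overlapped in both genotypes. The change was 0.52 in knockout (adjusted p = 0.0343) and 0.54 in wild type (adjusted p = 0.0401), called in 12 of 21 and 9 of 20 alternatives. A second probe set of Ermn changed by 1.09 in knockout (adjusted p = 0.00066) and by 0.53 in wild type (adjusted p = 0.0821).

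Mag, an adhesion glycoprotein of the membrane facing the axon, was called in wild type. In knockout it ran from 10.12 through 10.63 to 11.24 after MCAO, and the sham values of 10.49, 10.19 and 10.34 lay inside that range. The wild type arrays ran from 10.75 through 10.95 to 11.09 after MCAO, all above the sham values of 10.67, 10.25 and 10.00. The change was 0.29 in knockout (adjusted p = 0.237) and 0.63 in wild type (SE 0.18, adjusted p = 0.0192). The difference between these changes was -0.34 (adjusted p = 0.344).

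Gjb1, the connexin 32 of myelin gap junctions, had the widest spread of the members within a surgery group. In knockout MCAO arrays it ran from 6.31 through 8.40 to 9.14, where arrays 5 and 2 were lowest at 6.31 and 6.78, against 7.65, 7.49 and 7.83 in knockout sham arrays. Wild type arrays ran from 8.02 through 8.26 to 8.31 after MCAO, against 8.03, 7.60 and 7.28 after sham surgery. The change was 0.37 in knockout (adjusted p = 0.52) and 0.58 in wild type (adjusted p = 0.341). Without knockout MCAO arrays 2 and 5, the arrays with the high Gapdh 3′ minus 5′ differences, the knockout change was 0.97. Leaving out the lowest values of the group had to raise the change. Its adjusted p of 0.000615 is therefore not a test of a rise.

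The remaining myelin protein genes were not called in either genotype. Mbp, the basic protein that holds compact myelin together, changed by 0.07 in knockout and 0.11 in wild type. Its arrays ran only from 13.79 to 14.07 in knockout MCAO, 13.77 to 14.01 in knockout sham, 13.94 to 14.39 in wild type MCAO and 13.96 to 14.01 in wild type sham. Of 7 further probe sets of Mbp, 1 was called in knockout (0.43, adjusted p = 0.0192). Mog, a glycoprotein of the outer myelin surface, changed by 0.06 and -0.06, and Cnp, a phosphodiesterase of the cytoplasmic channels, by 0.07 and 0.19, in knockout and wild type. Mal, a raft proteolipid, changed by 0.43 and 0.37, and Tspan2, a tetraspanin, by 0.39 and 0.35. Tspan2 missed the threshold narrowly in knockout (adjusted p = 0.051), where 1 of its 2 further probe sets was called (0.51, adjusted p = 0.0178). Pllp, the myelin proteolipid plasmolipin, changed by -0.34 and 0.08, and Plekhb1, a membrane protein with a pleckstrin homology domain, by -0.09 and 0.31.

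**Figure D2:**
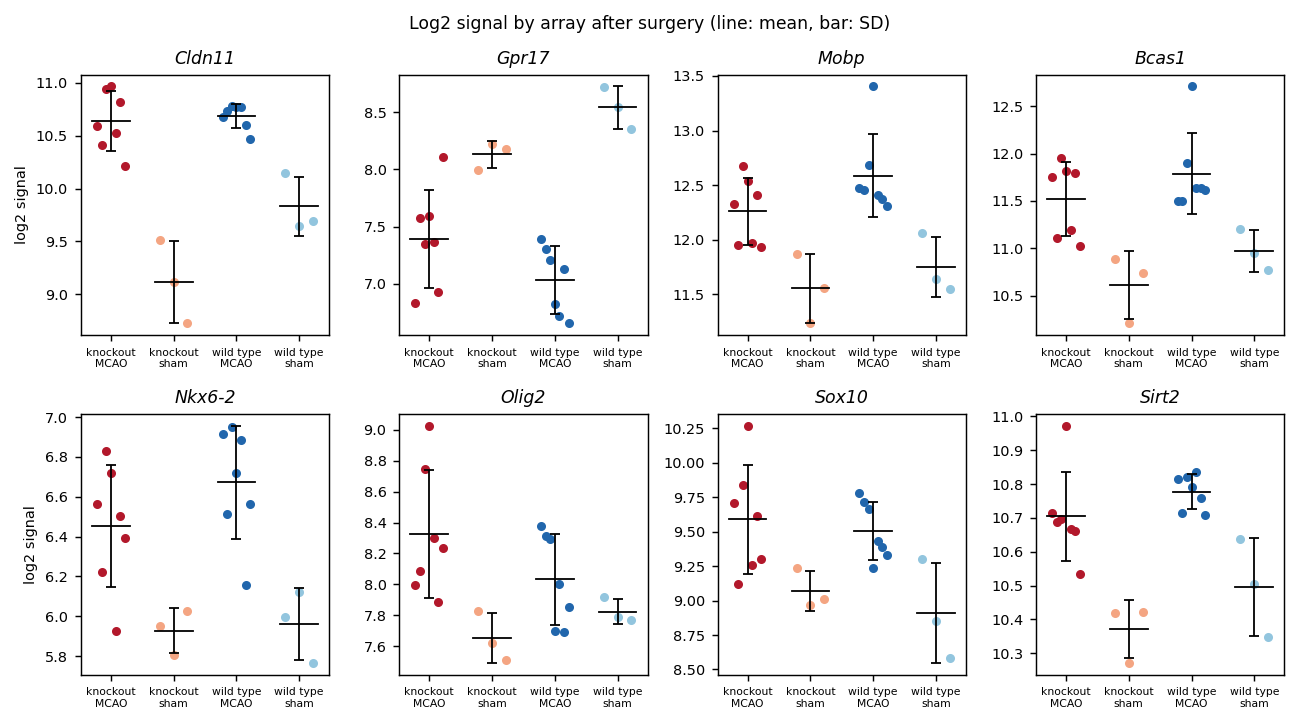
Log2 signal of Cldn11, Gpr17, Mobp, Bcas1, Nkx6-2, Olig2, Sox10 and Sirt2 in each of the 20 surgery arrays, grouped as knockout MCAO, knockout sham, wild type MCAO and wild type sham. Cldn11 in knockout sham arrays lies between 8.72 and 9.51, below the other groups, and Gpr17 in wild type MCAO arrays between 6.65 and 7.39, below wild type sham.

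Of the 7 genes for enzymes and metabolism 1 was called (14.3%, against 25.0% of all genes in knockout and 15.9% in wild type). It was Sirt2, which codes for a deacetylase abundant in myelin. It ran from 10.53 through 10.69 to 10.97 in knockout MCAO arrays, against 10.42, 10.27 and 10.42 in knockout sham arrays. Values in wild type ran from 10.71 through 10.79 to 10.84 after MCAO, against 10.64, 10.50 and 10.35 after sham surgery. The groups did not overlap in either genotype, and the change was small, 0.33 in knockout (SE 0.09, adjusted p = 0.00964) and 0.28 in wild type (adjusted p = 0.0344).

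Ugt8a, the galactosyltransferase that makes the main galactolipid of myelin, pointed down. It ran from 8.99 through 9.17 to 9.63 in knockout MCAO arrays, against 9.78, 9.56 and 9.31 in knockout sham arrays. In wild type it ran from 8.57 through 9.09 to 10.58 after MCAO, against 10.26, 9.96 and 9.93 after sham surgery. Wild type MCAO array 4 held the value of 10.58 and was the only array of its group above all sham arrays. The change was -0.30 in knockout (adjusted p = 0.451) and -0.75 in wild type (adjusted p = 0.0762). Without wild type MCAO array 4 the wild type change was -0.96 (adjusted p = 0.00255). A second probe set of Ugt8a was called lower in both genotypes, by -0.72 in knockout (adjusted p = 0.00333) and -0.78 in wild type (adjusted p = 0.00265).

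Aspa, the enzyme that frees acetate from N-acetylaspartate for myelin lipids, changed by -0.46 in knockout (adjusted p = 0.091) and -0.43 in wild type (adjusted p = 0.14). Without wild type MCAO array 4 its wild type change of -0.55 was called (adjusted p = 0.0257). Fa2h, which hydroxylates the fatty acids of galactolipids, changed by -0.13 in knockout and 0.22 in wild type. Car2, a carbonic anhydrase, changed by 0.26 in knockout (adjusted p = 0.0837) and -0.04 in wild type. Qdpr, a pteridine reductase, changed by -0.20 and -0.10, and Ndrg1, whose loss causes a demyelinating neuropathy, by 0.07 and 0.26, in knockout and wild type.

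Among the 5 transcription factors 2 were called higher in each genotype (40.0%, against 16.1% of all genes in knockout and 8.68% in wild type). Nkx6-2, a homeodomain factor of differentiating oligodendrocytes, was dim. It ran from 5.93 through 6.50 to 6.83 in knockout MCAO arrays, against 5.95, 5.81 and 6.03 in knockout sham arrays. Wild type arrays ran from 6.16 through 6.72 to 6.95 after MCAO, above all sham values of 5.996, 6.12 and 5.77. The change was 0.52 in knockout (adjusted p = 0.0311) and 0.71 in wild type (adjusted p = 0.00769).

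Olig2, a basic helix-loop-helix factor needed to specify the lineage, was called in knockout. It ran from 7.89 through 8.24 to 9.03 in knockout MCAO arrays, all above the knockout sham values of 7.83, 7.62 and 7.51. Values in wild type ran from 7.69 through 8.00 to 8.38 after MCAO, and the sham values of 7.92, 7.79 and 7.77 lay inside that range. The change was 0.67 in knockout (SE 0.20, adjusted p = 0.0197) and 0.21 in wild type (adjusted p = 0.502), and the difference between these changes was 0.46 (adjusted p = 0.262). With the actin 3′ minus 5′ difference as a covariate the knockout change was 0.30 (adjusted p = 0.238).

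Sox10, the factor that drives the myelin genes, ran from 9.12 through 9.61 to 10.27 in knockout MCAO arrays, against 9.24, 8.96 and 9.01 in knockout sham arrays. In wild type it ran from 9.24 through 9.43 to 9.78 after MCAO, against 9.30, 8.85 and 8.58 after sham surgery. The groups overlapped in both genotypes. The change was 0.52 in knockout (adjusted p = 0.0575) and 0.59 in wild type (adjusted p = 0.0429), and 1 of 2 further probe sets was called in wild type (0.53, adjusted p = 0.0129). Olig1, the partner of Olig2, changed by -0.25 and -0.22, and Nkx2-2, a homeodomain factor of early differentiation, by 0.09 and -0.02, in knockout and wild type.

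The receptor, precursor and early oligodendrocyte genes held every member called lower after MCAO, Gpr17 in both genotypes and Cspg4 in knockout. That made 25.0% of the 8 in knockout and 12.5% in wild type, where 8.90% and 7.27% of all genes were called lower. Gpr17, the receptor of committed precursors, ran from 6.83 through 7.36 to 8.11 in knockout MCAO arrays, against 8.00, 8.22 and 8.18 in knockout sham arrays. Wild type arrays ran from 6.65 through 7.12 to 7.39 after MCAO, against 8.73, 8.55 and 8.36 after sham surgery. The wild type groups were far apart, while in knockout the highest MCAO array reached past the lowest sham array. The change was -0.74 in knockout (0.598-fold, SE 0.21, adjusted p = 0.0137) and -1.51 in wild type (0.35-fold, SE 0.21, adjusted p = 5.75e-05). In knockout the call was lost without sham array 2 (-0.70, adjusted p = 0.0683) or sham array 3 (-0.72, adjusted p = 0.0626).

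Cspg4, which codes for the NG2 proteoglycan of precursors and pericytes, ran from 6.51 through 7.21 to 7.41 in knockout MCAO arrays, against 7.39, 7.61 and 7.59 in knockout sham arrays. Values in wild type ran from 7.02 through 7.14 to 7.64 after MCAO, around the sham values of 7.28, 7.22 and 7.31. The groups overlapped in both genotypes. The change was -0.44 in knockout (SE 0.16, adjusted p = 0.0421), called in 6 of 20 alternatives, and -0.05 in wild type (adjusted p = 0.839).

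Bcas1, which marks oligodendrocytes that have just begun to myelinate, moved the other way. It ran from 11.02 through 11.75 to 11.95 in knockout MCAO arrays, against 10.89, 10.21 and 10.74 in knockout sham arrays. In wild type it ran from 11.50 through 11.63 to 12.71 after MCAO, against 11.21, 10.95 and 10.77 after sham surgery. The groups did not overlap in either genotype. The change was 0.91 in knockout (SE 0.24, adjusted p = 0.00951) and 0.81 in wild type (SE 0.24, adjusted p = 0.0256). Its 2 further probe sets were dim, at means of 4.51 and 5.21. Both pointed down in knockout and up in wild type, and neither was called. The mean of all its probe sets changed by 0.17 in knockout (adjusted p = 0.38) and 0.34 in wild type (adjusted p = 0.0891).

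The other 5 genes of this kind were not called after MCAO on the chosen probe set. Pdgfra, the growth factor receptor of precursors, changed by 0.31 in knockout and -0.08 in wild type. A dim further probe set of Pdgfra was called in the opposite direction in wild type (0.56, adjusted p = 0.0365). Enpp6, a choline phosphodiesterase of newly formed oligodendrocytes, changed by -0.30 (adjusted p = 0.12) and 0.03 in knockout and wild type, and all its knockout MCAO arrays, 4.97 to 5.28, lay below the knockout sham arrays, 5.33 to 5.67. Gpr37, a receptor of differentiating oligodendrocytes, changed by -0.11 and -0.36, Lpar1, a lysophosphatidic acid receptor, by -0.04 and 0.19, and Evi2a by -0.00 and -0.06. A dim further probe set of Evi2a was called higher in knockout (0.34, adjusted p = 0.011).

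No member passed the test of a genotype difference in the MCAO change, where 9.59% of all genes did, 4.09% with a higher and 5.50% with a lower value in knockout. At an unadjusted p under 0.05, a threshold for which no share of all genes is given here, there were 2 members, Cldn11 and Gpr17. For Cldn11 the change was larger in knockout by 0.67 (SE 0.23, adjusted p = 0.0663), and for Gpr17 the fall was smaller in knockout by 0.77 (SE 0.29, adjusted p = 0.0871). Of the 32 members 14 had a difference above 0 and 18 below, with a median of -0.03 beside 0.03 for all genes. With each array centred on its median Cldn11 was called (0.75, adjusted p = 0.0495). Cldn11 was also called without knockout sham array 1 or knockout MCAO array 7, and Gpr17 without knockout MCAO array 1.

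The genotypes were then compared within each surgery. After MCAO no member was called between knockout and wild type, where 0.0440% of all genes were, 0.0165% higher and 0.0275% lower in knockout. No member's groups were without overlap, where 0.247% of all genes were higher and 0.121% lower without overlap. At an unadjusted p under 0.05 there were 7, with Mag, Cnp, Mal, Ermn, Tspan2 and Plekhb1 lower and Gpr17 higher in knockout. The share of all genes at that threshold is not given here, so the 7 cannot be set against it. The smallest p-values among the lower genes belonged to Mal at -0.40 (adjusted p = 0.175), Ermn at -0.37 (adjusted p = 0.189) and Cnp at -0.30 (adjusted p = 0.191). All 12 genes for myelin and junction proteins had a difference below 0, with a median of -0.29, and 25 of all 32 members did, with a median of -0.16 beside 0.01 for all genes. The members' median was -0.10 without wild type MCAO array 4 and -0.07 without knockout MCAO arrays 2 and 5. These genes share their arrays, and wild type MCAO array 4 was the highest of its group for 9 of these 12 genes. All 4 further probe sets of Mobp also lay below 0, at -0.33 to -0.84, as did 5 of 7 of Mbp, at -0.20 to -1.41, with none called. Of 15 pan-neuronal genes in the same comparison none was called and 8 had an unadjusted p under 0.05, all higher in knockout. Their mean signal was 11.996 to 12.27 in knockout and 11.70 to 12.17 in wild type MCAO arrays, and its part in the members' differences was not tested.

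After sham surgery Cldn11 was the member called, lower in knockout by -0.72 (SE 0.19, adjusted p = 0.0371), where 2.53% of all genes were called lower, 3.52% higher and 6.05% in either direction. Its knockout sham arrays, 9.51, 9.11 and 8.72, lay below the wild type ones, 10.15, 9.64 and 9.70. The call was lost without any 1 of the 3 wild type sham arrays and without knockout sham array 2 or 3. Of all genes 1101 were called with all arrays, and 120, 0 and 105 without wild type sham array 1, 2 and 3. Without knockout sham array 2 and 3 there were 19 and 0, so the loss is not particular to Cldn11. Groups of 3 and 3 did not overlap for 6 members, with Cldn11, Ermn, Ugt8a, Tspan2 and Gpr17 lower in knockout and Cspg4 higher. Of all genes 21.8% were lower and 20.4% higher without overlap. The knockout sham arrays had actin 3′ minus 5′ differences of 1.60 to 1.76, against 0.863 to 1.01 in wild type sham arrays, so that measure separated the same groups. With it as a covariate no member was called, and only 6 of all genes were. Markers of other tissues also differed between these groups without being called. All 13 genes for thalamus, hindbrain and cerebellum lay higher in knockout sham arrays, with a median of 0.41 and a mean signal of 7.09 to 7.57, against 6.81 to 6.83 in wild type sham arrays. Of 12 choroid plexus genes and of 12 endothelial and pericyte genes, 11 each lay lower in knockout, with medians of -0.27 and -0.19. Their part in the members' differences was not tested.

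**Figure D3:**
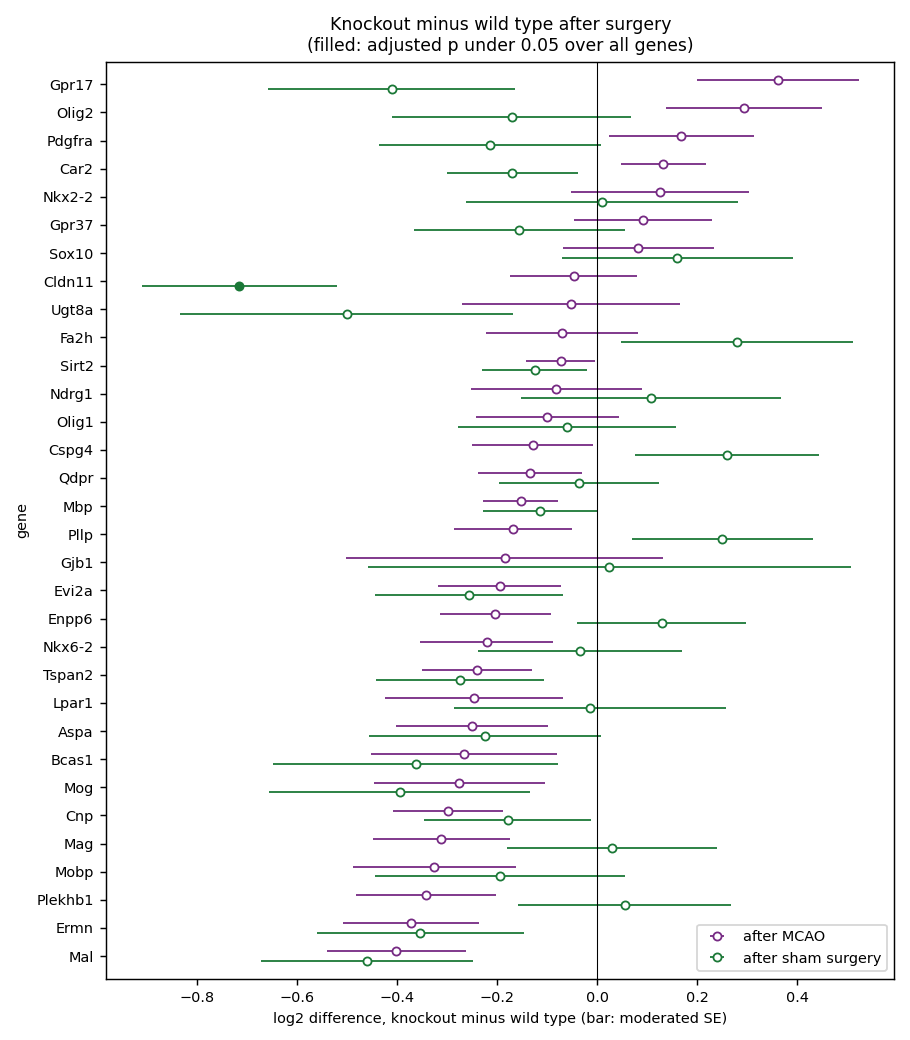
Difference in log2 signal, knockout minus wild type, for the 32 members after MCAO (purple) and after sham surgery (green), with standard errors; filled points passed an adjusted p of 0.05. Only Cldn11 after sham surgery, at -0.72, is filled, and after MCAO 25 of 32 points lie below 0.

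Part of the spread between arrays of 1 group was common to many members, but the arrays concerned also stood apart over all probe sets. The median correlation with the other surgery arrays was 0.973 for wild type MCAO array 4 and 0.974 for knockout MCAO array 4. It was 0.979 to 0.987 for the rest. How often these arrays were highest over all genes is not given here, so the pattern is not shown to be particular to the members. In wild type MCAO arrays, array 4 was the highest of 7 for 9 of 12 genes for myelin and junction proteins, 5 of 7 for enzymes and metabolism, 4 of 8 for receptors and early genes and 0 of 5 transcription factors. In knockout MCAO arrays, array 4 was the highest for 4 of 12, 6 of 7, 5 of 8 and 3 of 5 in the same order. Knockout MCAO array 7 was the lowest of its group for 12 members and array 5 for 10. Wild type MCAO array 4 also had the highest actin 3′ minus 5′ difference of its group, 1.70.

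**Figure D4:**
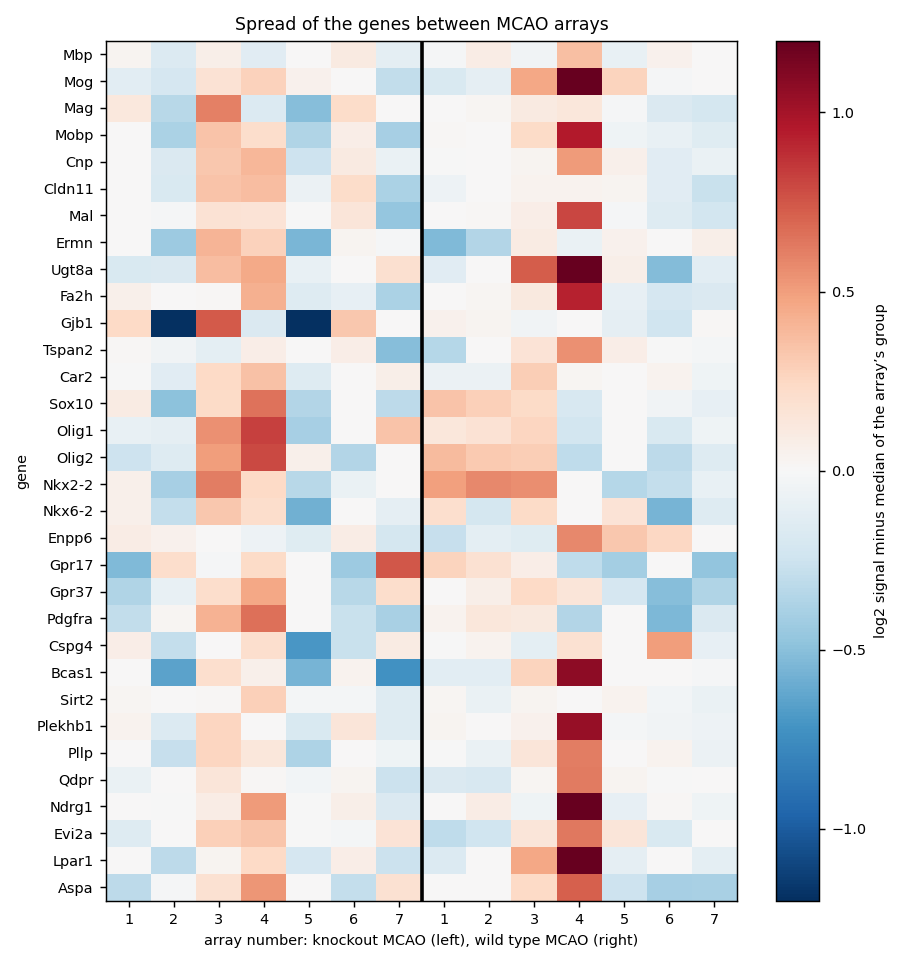
Heat map of the log2 signal of each member in each MCAO array, minus the median of its group, with colours limited to 1.2 either way; knockout arrays are left of wild type arrays. Array 4 of the wild type group is above its group for most myelin genes, and knockout arrays 5 and 2 are far below theirs for Gjb1.

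In naive hemispheres, which the authors normalized apart, 2 members were called between knockout and wild type. Mal ran from 11.58 through 11.69 to 11.91 in knockout arrays, against 11.78 through 12.04 to 12.22 in wild type arrays, and differed by -0.30 (SE 0.09, adjusted p = 0.0274), where 8.31% of all genes were called lower. Olig2 ran from 8.77 through 8.91 to 9.06 in knockout arrays, against 7.34 through 8.56 to 8.78 in wild type arrays, and differed by 0.52 (SE 0.17, adjusted p = 0.049), where 6.37% of all genes were called higher. Both pairs of groups overlapped, and no member's groups were without overlap, where 5.54% of all genes were higher and 5.26% lower without overlap. In either direction 14.7% of all genes were called. Without knockout naive array 2, 3, 4 or 7, each left out alone, no member was called. Over all alternatives Olig2 was called in 6 of 24 and Mal in 16 of 24. The members' median difference was 0.10 beside 0.05 for all genes. Mobp differed by 0.23 on its chosen probe set, while 2 of its 4 further probe sets were called in the opposite direction, at -0.51 (adjusted p = 0.0103) and -0.60 (adjusted p = 0.00116). Without wild type naive array 6, described next, the chosen probe set also lay below 0, at -0.14 (adjusted p = 0.109).

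Wild type naive array 6 stood apart from every other naive array, with correlations of 0.804 to 0.830 over all probe sets and an actin 3′ minus 5′ difference of 4.88. It was the lowest of its group for 19 members and the highest for 12. Without it the members' median difference was 0.05 and 5 members were called, with 24.1% of all genes called higher, 12.4% lower and 36.5% in either direction. The groups did not overlap for 1 member, Ndrg1, lower in knockout, where 5.46% of all genes were lower and 9.13% higher without overlap. Olig2 was higher in knockout by 0.37 (adjusted p = 0.00103), Enpp6 by 0.27 (adjusted p = 0.0184) and Nkx2-2 by 0.18 (adjusted p = 0.0475). Mal was lower at -0.27 (adjusted p = 0.0115) and Ndrg1 at -0.17 (adjusted p = 0.00342).

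The naive genotypes also differed in features of their values over all probe sets. Each pair of knockout naive arrays shared 1744 to 2878 identical values, each pair of wild type naive arrays 1 to 48, and a knockout and a wild type array 0. Array medians were 7.03 to 7.05 in knockout and 6.87 to 6.94 in wild type naive arrays. The labels do not say whether the genotypes were processed apart. Genotype and processing therefore cannot be told apart in the naive comparison.

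**Figure D5:**
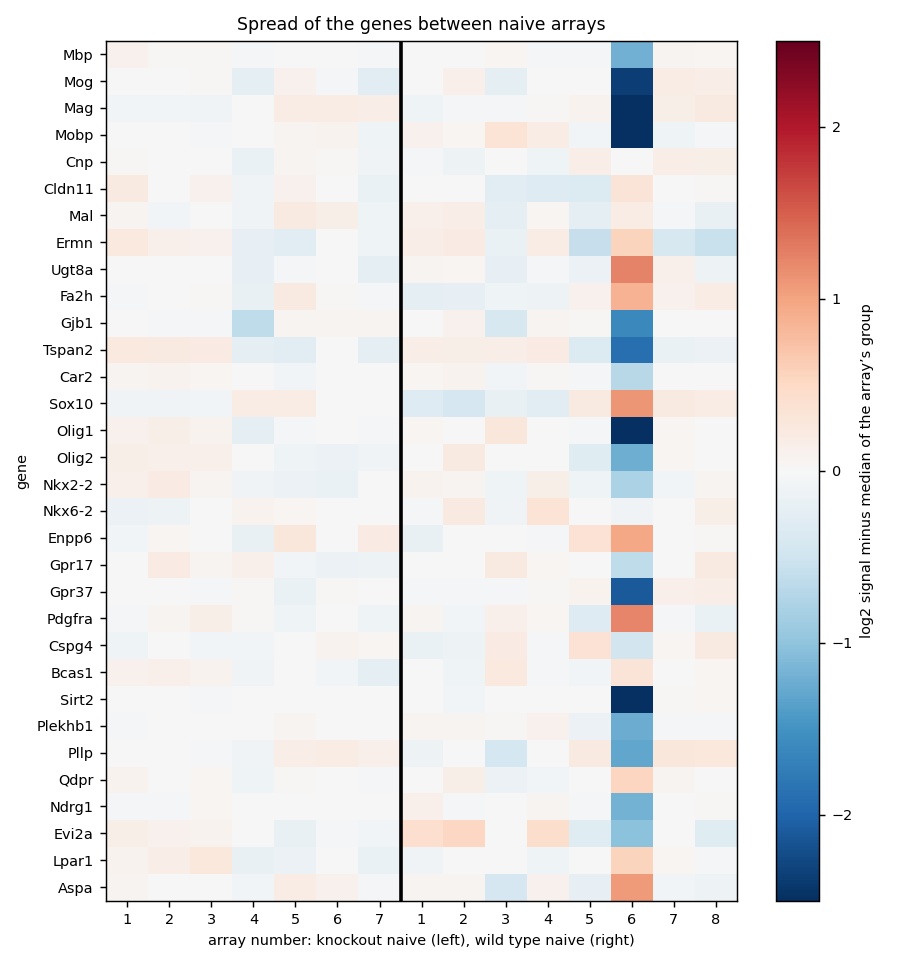
Heat map of the log2 signal of each member in each naive array, minus the median of its group, with colours limited to 2.5 either way; knockout arrays are left of wild type arrays. Wild type array 6 is the column that departs from the rest, at 7.88 for Olig1 where its group's median is 11.69.

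Further genes of the lineage were read from 3 lists, chosen like the members with earlier results known. Of 36 other mature oligodendrocyte and myelin genes, 13 were higher after MCAO in knockout (36.1%, against 16.1% of all genes). In knockout 1 was lower (2.78%, against 8.90% of all genes). In wild type 18 were higher (50%, against 8.68% of all genes) and 2 lower (5.56%, against 7.27%). Without knockout sham array 2 the knockout calls were 8, and without wild type sham array 2 or 3 the wild type calls were 12 or 9. The calls included Apod, a lipid carrier, at 1.82 in knockout and 1.66 in wild type, and the tetraspanin gene Cd9 at 1.27 and 1.03. The cytokine gene Il33, also made by astrocytes, was at 2.55 and 2.27, and the protease gene Adamts4 at 1.45 and 1.88. Cers2, a ceramide synthase for very long chains, was at 1.03 in knockout, and Nkain2 was at -0.997 in wild type.

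Of 27 other precursor and newly formed oligodendrocyte genes, 2 were higher after MCAO in knockout (7.41%, against 16.1% of all genes) and none lower (8.90% of all genes). In wild type none was higher (8.68% of all genes) and 4 were lower (14.8%, against 7.27% of all genes). The knockout calls were Rras2 at 0.74 and Vcan, a proteoglycan, at 0.85. As the mean of its probe sets Vcan was at 0.09 and not called (adjusted p = 0.4662). The wild type calls were Rlbp1 at -0.84, Cacng4 at -0.75, Tnr, a matrix glycoprotein, at -0.72 and Emid1 at -0.43. The wild type count was 2, 1 and 2 without wild type sham array 1, 2 and 3. At an unadjusted p under 0.05, 6 were higher and 2 lower in knockout, and 1 was higher and 6 lower in wild type. No gene of this list passed the test of the difference between genotypes, where 9.59% of all genes did. At an unadjusted p under 0.05 there were 3.

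Of 25 other transcription regulators of the lineage, 14 were higher after MCAO in knockout (56%, against 16.1% of all genes). In knockout 1 was lower (4%, against 8.90% of all genes). In wild type 4 were higher (16%, against 8.68% of all genes) and 3 lower (12%, against 7.27%). Id2, an inhibitor of basic helix-loop-helix factors, was at 1.15 in knockout, and Sox4 at 1.24. As the mean of its probe sets Sox4 was at 0.14 and not called (adjusted p = 0.509). Hes5, a Notch target, was at -0.89 in knockout and -1.54 in wild type, and Id4 at -1.07 in wild type. Klf6 and Chd7 were higher in wild type and stayed called in all 20 alternatives, at 0.59 to 0.93 and 0.74 to 0.91. The MCAO change was called larger in knockout for Yy1 (0.81), Sox2 (1.002), Hdac2 (0.55) and Id2 (0.69), and for Tppp (0.58) and Nkain2 (0.77) of the mature list. These made 16.0% of the regulators and 5.56% of the mature list, where 4.09% of all genes were called with a higher value. None of these 6 calls remained without knockout sham array 2, without knockout sham array 3, or with the actin covariate. For this difference 1744 of all genes were called with all arrays, and 173, 0 and 8 in those fits in the same order. The loss is therefore not particular to these 6 genes. After sham surgery 14 of the 25 regulators were lower in knockout without overlap of the groups, where 21.8% of all genes were. Of the regulators 2 were called lower, Id2 and Zfp24 (8.00%, against 2.53% of all genes). Neither was called with the actin covariate or without knockout sham array 2 or 3 or wild type sham array 2 or 3. In those fits 6, 19, 0, 0 and 105 of all genes were called, in the same order.

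Markers of other cell types moved after MCAO beside the members. Of all genes 16.1% were called higher and 8.90% lower in knockout, and 8.68% and 7.27% in wild type. Of 13 microglia and macrophage genes 6 were higher and 2 lower in knockout, and 5 higher and 2 lower in wild type. Of 12 endothelial and pericyte genes 6 were higher in knockout and 5 in wild type, and of 12 astrocyte genes 3 in each, among them Gfap at 2.13 and 1.95. Of 15 pan-neuronal genes none was called in knockout (unadjusted p under 0.05 in 5), and 3 were lower in wild type. Of 12 choroid plexus genes 2 were higher in knockout and none was called in wild type (unadjusted p under 0.05 in 3). Of 12 meningeal and fibroblast genes 4 were higher in knockout, and 1 was higher and 1 lower in wild type. No gene of 13 for thalamus, hindbrain and cerebellum was called in either genotype (unadjusted p under 0.05 in 1 each). Of 7 peripheral Schwann cell genes 1 was higher and 1 lower in each genotype. The part of these cell types in the members' changes was not tested.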

How the data were processed

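Biotin-labelled hemisphere RNA was measured on 20 surgery and 15 naive Affymetrix mouse arrays. The authors deposited log2 signals. They are RMA values per the submitters' processing notes, of a version not given in the sources used here. Per the labels, naive arrays were normalized apart. Surgery and naive values were therefore not compared. There were 45101 probe sets. A single gene symbol was listed for 34945, several symbols for 932 and none for 9160, and the other 64 were controls. Entrez IDs matched 34741 to current symbols. For each of 18193 genes the brightest probe set, by mean signal in the arrays fitted, was used.

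Sample labels gave the groups. Linear models with moderated variances (limma 3.58.1 in R 4.3.3) were fitted to all surgery arrays and, separately, to all naive arrays. The threshold was a Benjamini-Hochberg adjusted p of 0.05 over all genes. Counts at an unadjusted p under 0.05 have no share of all genes beside them. Standard errors are limma's moderated ones. Further probe sets were fitted over all 34945 probe sets with 1 symbol. The pipeline was tested on simulated data. The number of arrays limits the precision, with 3 sham arrays per genotype.

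The members and the other gene lists were chosen with earlier results of these data known. All members are named, with per-array values for those called in any comparison and for Gjb1, Ugt8a and Mbp, which were added after their values were seen. Of the other lists, genes were named from the 4 smallest p-values among the calls of a comparison. Alternatives were the mean of a gene's probe sets, a robust prior with an intensity trend, dropping dim genes, centring on medians, quantile normalization run again, a replicate block, actin and Gapdh covariates, fits to the compared groups alone, and dropping each array in turn. Leaving out knockout MCAO arrays 2 and 5, an unblocked fit to the arrays of the blocked one and the alternatives for the other lists were added after the data were seen. Array numbers were not treated as pairs. Promoter windows are from RefSeq, GRCm38.p6.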

Additional observations from a re-analysis of the deposited data

Results flagged for a closer look

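In the groups of 7 or 8 arrays, the array at either end was marked where its gap to the nearest other array was large relative to the range of its group, by Dixon's critical value. Of 128 combinations of member and group, 43 end values were marked in this way, where chance alone marks about 1 group in 20. Members share arrays, so these marks are not independent.

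Wild type naive array 6 held most of the marks. It was far below its group for Mbp at 13.04, Mog at 6.73, Mag at 8.35, Mobp at 9.80, Gjb1 at 7.18, Tspan2 at 9.15, Car2 at 11.91, Olig1 at 7.88, Olig2 at 7.34, Nkx2-2 at 7.33, Gpr17 at 8.43, Gpr37 at 8.18, Sirt2 at 8.70, Plekhb1 at 11.38, Pllp at 8.73 and Ndrg1 at 9.60. It was far above its group for Ugt8a at 11.71, Fa2h at 11.41, Sox10 at 11.00, Enpp6 at 7.03, Pdgfra at 11.03, Qdpr at 13.30, Lpar1 at 10.09 and Aspa at 10.46. Without this array 5 members were called between the naive genotypes instead of 2, and 6641 of all genes instead of 2669.

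Wild type MCAO array 4 was far above its group for Mbp at 14.39, Mobp at 13.40, Cnp at 13.32, Mal at 12.27, Fa2h at 10.55, Bcas1 at 12.71, Plekhb1 at 13.03, Pllp at 9.84, Qdpr at 12.91, Ndrg1 at 11.04 and Lpar1 at 10.43. Wild type MCAO array 3 was far above its group for Car2 at 12.27.

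Knockout MCAO array 4 was far above its group for Sirt2 at 10.97 and Ndrg1 at 10.28. Knockout MCAO array 7 was far below its group for Mal at 10.68 and Tspan2 at 9.93. In knockout naive arrays the low values were Sirt2 at 11.21 in array 3, Gjb1 at 8.35 in array 4 and Gpr37 at 10.24 in array 5.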

How the results depend on the processing

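No member change that was called turned its direction in any alternative, where 316 such values stayed called and 114 did not. The number of members called, which was 9 for MCAO in each genotype, ranged over single arrays left out from 1 to 12 in knockout and from 2 to 10 in wild type. It ranged from 0 to 1 for the difference between genotypes, was 0 in all 14 cases between genotypes after MCAO, and ranged from 0 to 1 after sham surgery and from 0 to 5 in naive hemispheres. With each array centred on its median, 1 member was called for the difference of the MCAO changes, and the median difference of all genes was 0.11 instead of 0.03. With the actin covariate, 1 member, Gpr17 (0.44, adjusted p = 0.0365), was called after MCAO and 0 after sham surgery. Of all genes 986 were called after MCAO, against 8 without the covariate, and 6 after sham surgery, against 1101. After sham surgery, repeated quantile normalization gave 0 calls and only the arrays compared gave 3, with 303 and 3451 of all genes called.

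Deviations of same-numbered arrays correlated at -0.278 to 0.362 over the comparisons. Arrays of different numbers were not set beside them, so whether the numbers pair the samples was not tested. With the replicate number as a block, 8 members were called in knockout, 10 in wild type, 3 after sham surgery and 1 in naive hemispheres. Of all genes 2565, 2892, 3112 and 1858 were called in the same order. The same arrays without the block gave 3 after sham surgery and 1 in naive hemispheres, with 3451 and 2414 of all genes called. The members called were not the same. After sham surgery the block fit added Mal and Ugt8a to Cldn11, and the unblocked fit added Ugt8a and Gpr17. In naive hemispheres the block fit called Olig2 and the unblocked fit Mal.

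In naive hemispheres, the mean of probe sets, the intensity trend with a robust prior, median centring and repeated quantile normalization gave 1 call each. Leaving out dim genes gave 0, the actin covariate 6 and the Gapdh covariate 7. Of all genes fitted, 163, 6243 and 6680 were called in the same order, against 2669 in the main fit. The cause was not tested for any of these counts. The fits that leave out an array kept the probe set chosen over all arrays. A p that missed the threshold does not show that values were alike, and 3 sham arrays per genotype limit what can be seen.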
